A study of Mus musculus with 6 samples.

Results

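The genes described here are 42 transcription factor genes that direct the first steps of differentiation into the 3 germ layers, taken from the 21887 protein-coding genes of the mouse annotation. They are described by the ESRRB binding regions with a summit within 50 kb of the gene. The list names 13 neural patterning genes, 5 proneural and Notch pathway genes, 7 genes of the primitive streak, 7 endoderm genes and 10 genes of mesoderm, heart and blood. The rule names the genes and uses no measured value.

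ESRRB is an orphan nuclear receptor that binds DNA mostly as a monomer at an extended response element, and it is one of the factors that hold mouse embryonic stem cells in the naive state. Germ layer transcription factors are largely silent in that state and come on as cells leave it, each in its own lineage. Many of their genes are small, lie far from other genes and have CpG-rich promoters held by Polycomb complexes.

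ChIP-seq, which sequences the DNA that an antibody recovers from fixed chromatin, was done with a mouse monoclonal antibody to ESRRB in E14 cells, a line of mouse embryonic stem cells. One condition was 2iL, which is N2B27 medium with the GSK3 inhibitor CHIR99021 at 3 µM, the MEK inhibitor PD0325901 at 1 µM and the cytokine LIF. In the other conditions the cells had been in N2B27 medium without 2iL for 48 h or 96 h. Each condition had 1 ESRRB library and 1 input library, and the inputs were not used here. All cells came from this one line, with no genetic change named, and peak lists carry no expression values with which its identity could be checked. With 1 library per condition there is no replicate, no test between conditions and no p-value, and the values below describe these libraries.

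A region is an interval in the authors' peak list of a library. Its fold is the ratio of ChIP reads to local background at its highest summit, from the same list. The lists held 13767 regions in 2iL, 10970 after 48 h and 7018 after 96 h, with median folds of 5.88, 4.98 and 4.82. The lists carry no total read numbers, but the reads at each summit could be recovered from fold and p, and their median was 39 in 2iL, 55 after 48 h and 38 after 96 h. The lowest local background, which follows the depth of a library, was 5.04 reads in 2iL, 8.09 after 48 h and 5.84 after 96 h. The fold exceeded by 95% of regions was 3.47 in 2iL, 2.91 after 48 h and 2.81 after 96 h. These values are not cut-offs, and some regions named below lie under them. How often weak sites went uncalled cannot be told from lists of called regions, so "no region" below means only that none was called. The interval given in brackets after a fold is an exact 95% Poisson interval of the reads at the summit, with the background taken as known. It covers counting error only, and reads without molecular identifiers are not independent molecules.

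Promoter sequence was at hand for 30 of the 42 genes, as 38 windows that run from 250 bases before an annotated start to 50 bases after it (RefSeq, GRCm38.p6, the assembly that mm10 stands for). Among them, a called ESRRB region overlapped 1 window, that of the heart and motor neuron gene Isl1, and it did so in 2iL. The share over all genes with a window was 8.22% (1438 of 17492 genes, in any library). The Isl1 window, chr13:116309639-116309938 on the minus strand, is shown as the one promoter of the list under a region, with its 37 CG pairs in capitals:

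Isl1: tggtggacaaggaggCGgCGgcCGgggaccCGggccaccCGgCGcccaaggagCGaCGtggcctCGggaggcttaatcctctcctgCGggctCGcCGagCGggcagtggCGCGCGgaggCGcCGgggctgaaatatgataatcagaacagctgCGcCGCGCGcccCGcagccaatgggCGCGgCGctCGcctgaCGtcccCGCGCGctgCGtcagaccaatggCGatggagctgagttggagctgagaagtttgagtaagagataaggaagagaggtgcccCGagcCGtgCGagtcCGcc

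It had 69.0% G or C. Over the 38 windows the median was 63.0% G or C and 23 CG pairs, against 56.3% and 13 over all 21263 windows, while the 1667 windows of any gene that a region overlapped had medians of 62.3% and 23. The median number of CG pairs was thus the same for the genes of the list as for windows under a region.

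The extended response element AAGGTCA, searched on both strands, was in 0 of the 38 windows. Over all windows it was in 4.08% (867 of 21263), and among windows that held a region's summit it was in 25.7% of 311 in 2iL, 32.4% of 185 after 48 h and 29.1% of 179 after 96 h. The shorter core AGGTCA, which AAGGTCA contains, was in 1 window of the list, that of the proneural gene Neurog1, and in 14.7% of all windows. The longer form TCAAGGTCA was in 0 of the 38 windows and in 0.334% of all. A match is a string of letters and not a site, and a window without one says nothing of sites outside it. Neurog1 had no region within 50 kb in any library, and its window, chr13:56252131-56252430 on the minus strand, is shown because it is the list's single match, in capitals as TGACCT, the reverse complement of AGGTCA, first base at -111 from the gene start:

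Neurog1: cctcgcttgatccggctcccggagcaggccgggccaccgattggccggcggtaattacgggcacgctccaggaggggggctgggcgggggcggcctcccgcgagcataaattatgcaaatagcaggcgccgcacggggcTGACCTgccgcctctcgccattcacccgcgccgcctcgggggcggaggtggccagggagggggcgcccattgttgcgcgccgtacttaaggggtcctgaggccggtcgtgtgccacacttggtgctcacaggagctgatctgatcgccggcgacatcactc

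In each library, the share of these genes near an ESRRB region was within counting error of the share of all genes. The deposited lists gave fewer such genes after withdrawal, but this turned when the lists were cut to equal length. In 2iL, 20 of the 42 genes had a region within 50 kb (47.6%, exact Clopper-Pearson 95% interval 32.0 to 63.6), as did 18 after 48 h (42.9%, 27.7 to 59.0) and 16 after 96 h (38.1%, 23.6 to 54.4). The share over all 21887 genes was 56% in 2iL, 49.9% after 48 h and 39.6% after 96 h, and lay inside each of those intervals. In any library, 27 genes had a region (64.3%, 48.0 to 78.4), against 64.1% of all genes. With each list cut to its 7018 regions of highest fold, 11 genes had a region in 2iL, 11 after 48 h and 16 after 96 h, against 37.8%, 37.0% and 39.6% of all genes. In the whole lists, a region was there in all 3 libraries for 11 genes (26.2%, 13.9 to 42.0), against 33.4% of all genes.

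The windows searched were smaller than usual, since the median span of the 42 genes was 5.72 kb, against 17.2 kb for all genes. A median of 1 other coding gene lay within 50 kb of them, against 3 for all genes. Per Mb of window the 42 genes had 7.12 regions in 2iL, 4.81 after 48 h and 3.98 after 96 h, while all genes had 6.75, 5.38 and 3.47. The 27 genes with a region had a median span of 7.4 kb and the 15 without one 3.99 kb, so size of the searched window went with having a region.

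Fewer regions than in 2iL were near 10 of the 42 genes after 48 h (23.8%) and near 12 after 96 h (28.6%). Over all genes that share was 30% after 48 h and 39.7% after 96 h. More regions than in 2iL were near 3 of the genes after 48 h (7.14%) and near 4 after 96 h (9.52%), against 14.6% and 7.58% of all genes. The number was the same, and at least 1, for 10 genes after 48 h (23.8%) and 8 after 96 h (19.0%). That share over all genes is not at hand, so these 2 counts describe the list alone. In the lists of equal length the balance turned, with fewer regions near 4 genes and more near 4 after 48 h, and fewer near 4 and more near 10 after 96 h. Over all genes those lists gave 16.3% fewer and 15.4% more after 48 h, and 15.9% fewer and 19.5% more after 96 h.

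**Figure D1:**
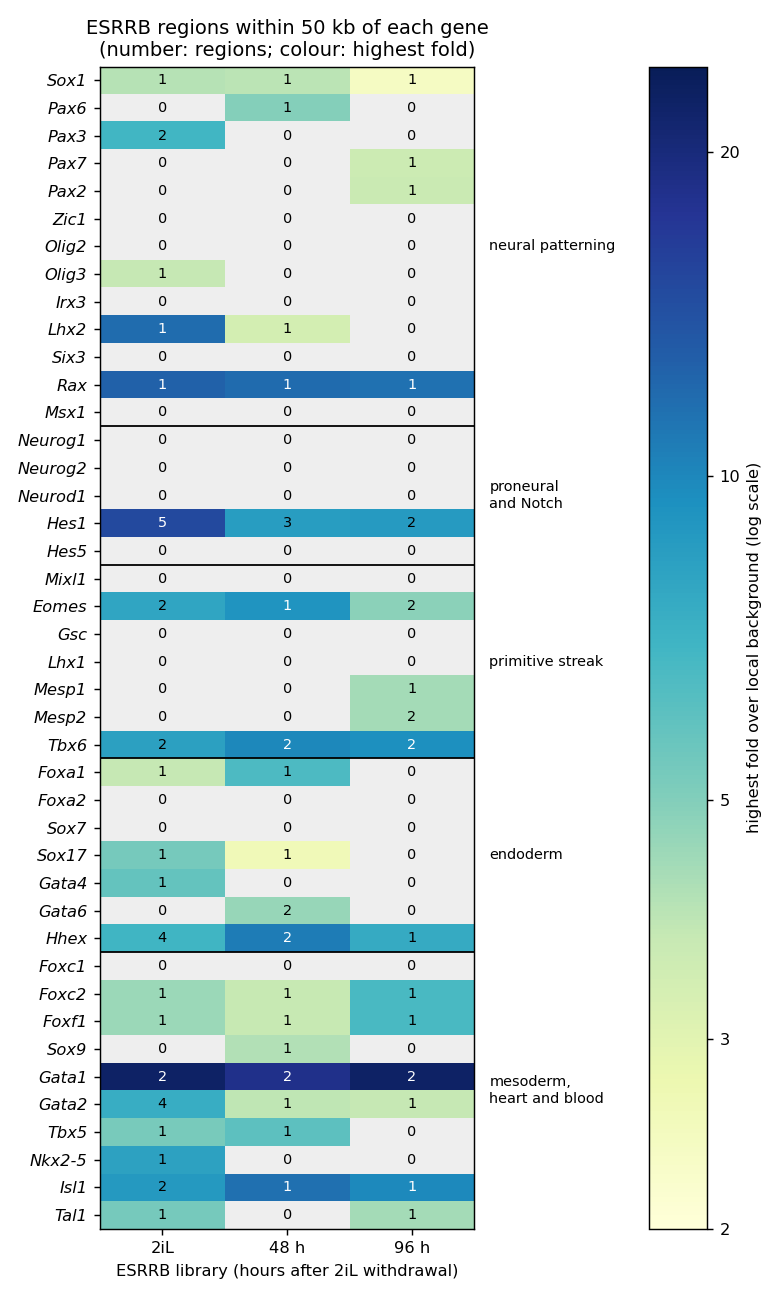
Highest ESRRB fold within 50 kb of each of the 42 genes (rows, by lineage) in each library (columns, 2iL, 48 h and 96 h after withdrawal); the number in a cell counts regions, colour gives the fold on a log scale, and grey cells have no region. Gata1 has the highest fold in each library (22.4, 18.4 and 22.4), and 15 rows are grey throughout.

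The neural patterning group holds the genes that divide the neural plate and tube into territories. A region was near 5 of 13 genes in 2iL, 4 after 48 h, 4 after 96 h and 8 in at least 1 library. Over all genes the shares were 56%, 49.9%, 39.6% and 64.1%. Of the 6 sites bound in 2iL near them, 2 were called after 48 h and 1 after 96 h. These shares were 33.3% (exact interval 4.33 to 77.7) and 16.7% (0.421 to 64.1). The shares over all regions of 2iL, 50.7% and 35%, lay inside those intervals. Rax and Lhx2, both needed for the eye field, had the strong sites of the group, and their courses differed.

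Rax had 1 region, chr18:65924172-65926052 in 2iL, 9.44 kb from the gene on its lower-coordinate side. Its fold was 12.6 in 2iL (10.8 to 14.7, 167 reads), 11.9 after 48 h (10.5 to 13.6, 233 reads) and 11.4 after 96 h (9.5 to 13.5, 127 reads). The 3 intervals overlap, and the fold stood at the 93.6, 94.9 and 93.8 percentile of the regions of each library. The mean fold over the 3 summits of the 48 h region was 6.31, so the likeness across libraries holds for the highest summit; the regions of the other libraries had 1 summit each.

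Lhx2 had a region 27.7 kb downstream of the gene, chr2:38397100-38398140. The fold was 11.8 in 2iL (9.55 to 14.5, 91 reads) and 3.36 after 48 h (2.52 to 4.4, 51 reads), and no region was called after 96 h. Its rank was at the 92.2 percentile of regions in 2iL and at the 12.3 percentile after 48 h. The 48 h fold was 0.284 of the 2iL fold, and 0.616% of the 6981 regions called in both of these libraries had a ratio that low or lower. With the mean over its summits the 2iL fold was 7.03, still above the single summit of 48 h.

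Pax3, which marks the dorsal neural tube and the neural crest, had regions in 2iL only. The stronger of these, chr1:78167718-78168430, lay inside the gene with fold 6.91 (5.26 to 8.92), and another lay 19.3 kb away with fold 5.37. Olig3, a gene of dorsal progenitors, had 1 region of fold 3.74 (2.64 to 5.16) in 2iL, chr10:19372203-19372524, 13.7 kb downstream. Neither gene had a region after 48 h or 96 h.

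Sox1, the earliest marker of the neural plate, had 1 region in each library, with no overlap between libraries. In 2iL it was chr8:12439504-12440395, 40.2 kb downstream, with fold 4.02 (3.07 to 5.16). At 48 h it was chr8:12445189-12445920 with fold 3.93 (3.04 to 5.01), and after 96 h chr8:12446064-12446808 with fold 2.38 (1.57 to 3.47). None of the 3 overlapped another, so equal counts in the 3 libraries did not mark one region called throughout. The 48 h region ends at 12445920 and the 96 h region starts at 12446064, so these lie close together. The 96 h region stood at the 2.52 percentile of fold in its library.

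For Pax6, Pax7 and Pax2 a region was called only after withdrawal, each in 1 library. Pax6, a master gene of eye and forebrain, had chr2:105692161-105693111 inside the gene after 48 h, with fold 4.94 (3.88 to 6.2). Pax7, a gene of the dorsal neural tube and muscle stem cells, had chr4:139724209-139724830 after 96 h, 12.5 kb downstream, with fold 3.58 (2.47 to 5.03). Pax2, a gene of the midbrain-hindbrain boundary and the kidney, had chr19:44770166-44770884 inside the gene after 96 h, with fold 3.65 (2.39 to 5.36). These 3 regions stood at the 48.8, 19.0 and 21.2 percentile of fold in their own libraries. No region in any library was near Zic1, Irx3 or Msx1, which pattern the neural tube, Olig2, of motor neuron and oligodendrocyte progenitors, or Six3, of the forebrain.

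Among the 5 proneural and Notch genes, Hes1 alone had regions, and it had more in 2iL than any other gene of the list. Hes1 is a repressor that Notch signalling induces and that holds progenitors back from neuronal differentiation. It had 5 regions in 2iL, 3 after 48 h and 2 after 96 h. The proneural factors Neurog1, Neurog2 and Neurod1 and the Notch target Hes5 had none.

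The strongest Hes1 region, chr16:30061737-30064615 in 2iL, lay 2.16 kb from the gene on its lower-coordinate side. Its fold was 15.0 in 2iL (12.8 to 17.4, 171 reads), 8.5 after 48 h (7.52 to 9.57, 271 reads) and 8.71 after 96 h (7.39 to 10.2, 152 reads). The 2iL interval lies above both later ones, which overlap each other, and the rank of the site was at the 96.8, 85.3 and 87.2 percentile of its library. The ratio of later fold to 2iL fold at this site was 0.567 after 48 h and 0.581 after 96 h, against medians of 0.839 and 0.768 over all regions called in both libraries. Of all those regions, 16.9% after 48 h and 26.0% after 96 h had a ratio that low or lower, so such a fall was not rare. The mean over the summits of the region was 6.36 in 2iL, 7.51 after 48 h and 5.43 after 96 h, so with that measure the 48 h value was above that of 2iL. The 2iL region held 5 summits, that of 48 h 2 and that of 96 h 3.

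A second Hes1 region, 19.5 kb away on the same side, had fold 7.79 in 2iL (6.14 to 9.76), 5.36 after 48 h (4.39 to 6.48) and 5.94 after 96 h (4.55 to 7.61). The third, inside the gene, had fold 4.51 in 2iL (3.28 to 6.06) and 2.37 after 48 h (1.79 to 3.07) and was not called after 96 h. Those on the higher-coordinate side, 2.02 and 21.1 kb from the gene, had folds of 5.27 and 4.98 and were called in 2iL only. By highest summit, all 5 sites were thus either lower at both later times than in 2iL or not called at one or both. With the mean over summits the second region turned after 96 h, with 5.07 in 2iL, 3.48 after 48 h and 5.94 after 96 h.

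The primitive streak genes direct the formation of mesoderm and definitive endoderm at gastrulation. A region was near 2 of 7 in 2iL, 2 after 48 h and 4 after 96 h, against 56%, 49.9% and 39.6% of all genes. Counts of this size moved with the setting, to 7, 4 and 5 with summits within 100 kb and to 1, 1 and 1 when a region counted for its nearest coding gene only. Of the 4 regions of 2iL near them, 3 were called after 48 h and 3 after 96 h.

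Tbx6, a T-box gene of presomitic mesoderm, had 2 regions that were called in all 3 libraries. The stronger, chr7:126797544-126799324 in 2iL, had fold 8.31 in 2iL (6.6 to 10.3), 10.0 after 48 h (8.59 to 11.6) and 9.46 after 96 h (7.65 to 11.6). The weaker, 47.0 kb from the gene, had folds of 3.36, 3.74 and 4.17. All intervals overlap within each site. The mean over summits of the stronger was 5.38 in 2iL, 6.42 after 48 h and 6.68 after 96 h. The stronger lies inside Aldoa, a glycolysis gene, 12.8 kb downstream of Tbx6, and 7 other coding genes lie within 50 kb of Tbx6, so these regions can be assigned to Tbx6 by distance only.

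Eomes, a T-box gene needed for definitive endoderm and early mesoderm, had 2 regions in 2iL, 1 after 48 h and 2 after 96 h. The region called throughout, chr9:118487687-118488926 in 2iL, has its summit 2.15 kb downstream of the gene. Its fold was 8.0 in 2iL (6.14 to 10.3, 60 reads), 9.14 after 48 h (7.67 to 10.8, 134 reads) and 4.8 after 96 h (3.8 to 5.99, 77 reads). The 96 h interval lies below both others. With the mean over summits the values were 8.0, 6.18 and 4.4, and the 48 h value was below that of 2iL. A region inside the gene had fold 4.74 in 2iL only. At 96 h another region inside the gene, chr9:118478314-118479717, had its summit 902 bases past the start, with fold 2.46 (1.72 to 3.4), at the 2.81 percentile of its library.

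Mesp1 and Mesp2, neighbouring genes of cardiac and somite mesoderm, had a region after 96 h only. They share chr7:79819695-79820347, with fold 4.32 (3.03 to 5.99), 6.46 kb from Mesp2 and 26.3 kb from Mesp1, though Anpep, an aminopeptidase gene, is nearer. Mesp2 had a further region, chr7:79848098-79849130, with fold 2.36 (1.43 to 3.7, 17 reads) and a −log10 q of 1.24, which is a q above 0.05. The homeobox genes Mixl1, of mesendoderm, and Gsc and Lhx1, of the organizer, had no region in any library.

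**Figure D2:**
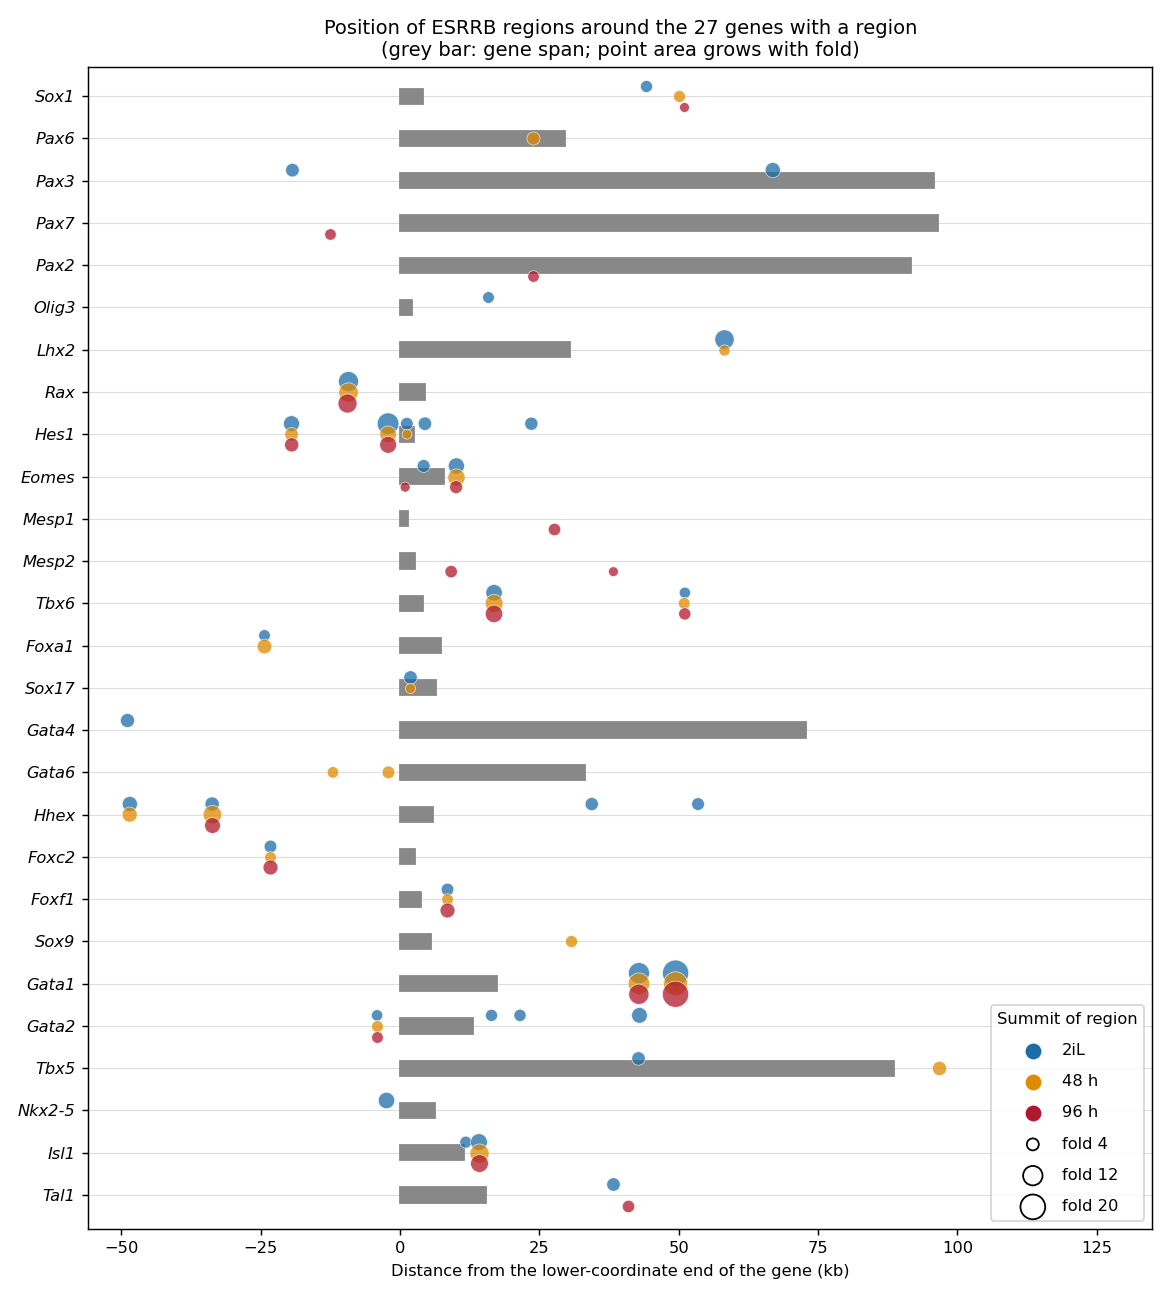
Position of each region's summit (points, coloured by library, with area growing with fold) relative to the lower-coordinate end of the gene (0 on the horizontal axis, in kb), with the gene's span as a grey bar, for the 27 genes with a region. Points of the 3 libraries stack at 12 sites, among them both of Gata1 and those of Rax, Isl1 and Tbx6. The Sox1 regions do not overlap, though those of 48 h and 96 h lie close together.

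Of the 7 endoderm genes, 4 had a region in 2iL, 4 after 48 h and 1 after 96 h, against 56%, 49.9% and 39.6% of all genes. Of the 7 regions of 2iL near them, 4 were called after 48 h and 1 after 96 h. These shares were 57.1% (exact interval 18.4 to 90.1) and 14.3% (0.361 to 57.9). The shares over all regions of 2iL, 50.7% and 35%, lay inside those intervals. The region called after 96 h was near Hhex, a homeobox gene of the anterior visceral endoderm and the liver bud. In the lists of equal length the group had 1 gene near a region in 2iL, 3 after 48 h and 1 after 96 h. Over all genes those lists gave 37.8%, 37.0% and 39.6%.

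Hhex had 4 regions in 2iL, 2 after 48 h and 1 after 96 h. The strongest of 2iL, chr19:37386070-37386590, had fold 6.95 in 2iL (5.03 to 9.37) and 6.82 after 48 h (5.24 to 8.73) and was not called after 96 h. The one called throughout, 33.7 kb upstream, had fold 5.96 in 2iL (4.67 to 7.49, 71 reads), 10.7 after 48 h (8.84 to 12.9, 113 reads) and 7.6 after 96 h (5.69 to 9.94, 51 reads). Its 48 h interval lies above that of 2iL, and its ratio of 48 h to 2iL fold, 1.8, was the highest in the list. Its mean over summits was 4.47 in 2iL, 10.7 after 48 h and 4.64 after 96 h. Both lie inside Kif11, a mitotic kinesin gene. Regions 28.5 and 47.6 kb downstream, with folds of 5.0 and 4.61, were called in 2iL only.

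Foxa1, a pioneer factor of foregut and liver, had 1 region, chr12:57515663-57516358, 24.4 kb downstream. Its fold was 3.74 in 2iL (2.64 to 5.16) and 6.49 after 48 h (4.95 to 8.36), and it was not called after 96 h. Sox17, which specifies definitive endoderm, had a region inside the gene, chr1:4491895-4493585, with fold 5.31 in 2iL (3.78 to 7.26) and 2.59 after 48 h (1.94 to 3.39), also not called after 96 h. Between 2iL and 48 h these sites moved in opposite directions, with ratios of 1.74 for Foxa1 and 0.488 for Sox17. The mean over the summits of the Sox17 region was 3.28 in 2iL and 2.34 after 48 h.

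Gata4 and Gata6, zinc finger factors of primitive endoderm and heart, had regions in 1 library each. Gata4 had chr14:63149467-63150297 in 2iL, with fold 5.79 (4.06 to 8.03), 49.0 kb away and inside Fdft1, a gene of sterol synthesis. Gata6 had 2 regions after 48 h, chr18:11049963-11050895 with fold 4.58 (3.48 to 5.92), 2.09 kb from the gene, and chr18:11039932-11040672 with fold 3.58 (2.65 to 4.74), 12.1 kb away. No region was called near Foxa2, a pioneer factor of node and endoderm, or Sox7, a gene of primitive endoderm and vessels.

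In the mesoderm, heart and blood group a region was near 8 of 10 genes in 2iL, 7 after 48 h, 6 after 96 h and 9 in at least 1 library. Counting a region for its nearest coding gene only left 4, 4 and 2 of these 10 genes, against 3, 3 and 0 of the 7 endoderm genes and 5, 4 and 4 of the 13 neural patterning genes. Which group was most often near a region thus turned on that choice, and over the 5 groups, the libraries and 6 alternatives 31 of 90 counts moved by more than 1.5 times. Of the 12 sites bound in 2iL near the genes of mesoderm, heart and blood, 5 were called after 48 h and 5 after 96 h. Each share was 41.7% (exact interval 15.2 to 72.3). The shares over all regions of 2iL, 50.7% and 35%, lay inside that interval. Group sizes are small, and no difference between groups was tested.

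**Figure D3:**
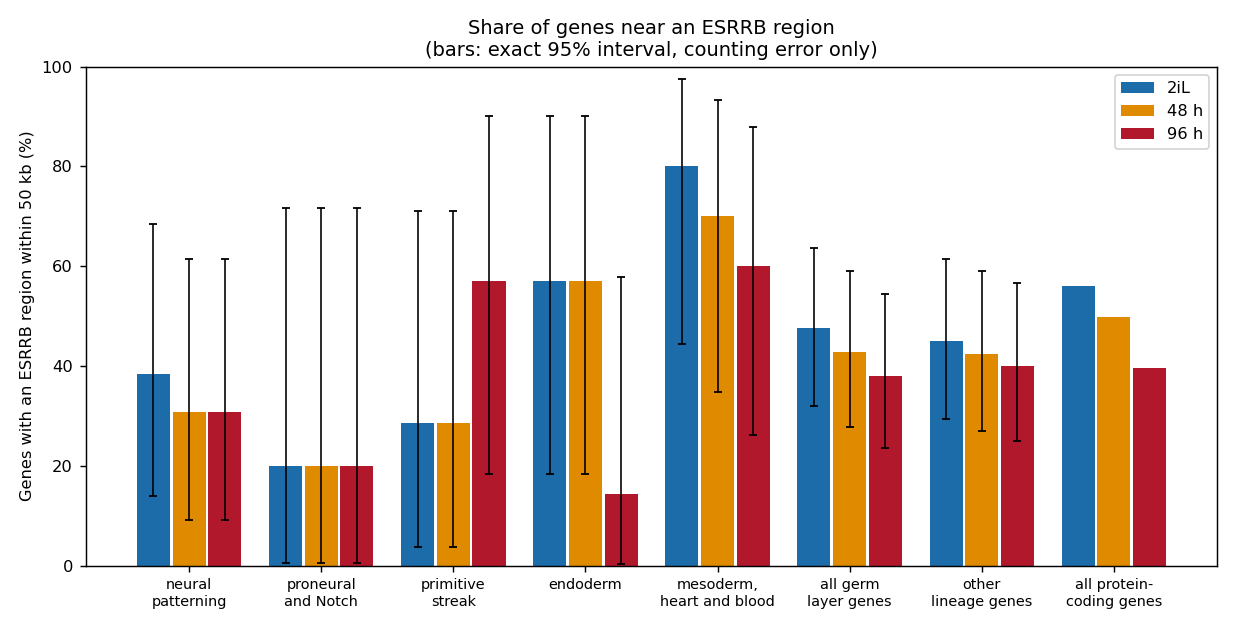
Share of genes with an ESRRB region within 50 kb (vertical axis, percent) in 2iL, after 48 h and after 96 h, for the 5 lineage groups, all 42 genes, the 40 other lineage genes described last and all protein-coding genes; error bars are the exact 95% intervals of counting error. The bars of all 42 genes, 47.6%, 42.9% and 38.1%, stand beside 56%, 49.9% and 39.6% for all genes, and the intervals of the 5 groups overlap.

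Gata1, the master factor of red cells and megakaryocytes, had the strongest regions of the list, 2 in each library. The first, chrX:8008108-8009672 in 2iL, had fold 22.4 in 2iL (19.0 to 26.2, 151 reads), 18.4 after 48 h (16.0 to 21.0, 207 reads) and 22.4 after 96 h (19.2 to 26.0, 170 reads). The second had folds of 14.1 (11.2 to 17.4), 14.7 (12.7 to 17.0) and 13.0 (10.7 to 15.6). The first stood at the 99.6, 99.1 and 99.5 percentile of fold in its library, and intervals overlap across the libraries at both sites. With the mean over summits the values were 22.4, 10.4 and 22.4 at the first site and 6.12, 9.2 and 13.0 at the second, so the level course holds for the highest summits. They lie 32.0 and 25.5 kb upstream of Gata1, inside and 2081 bases from Glod5, which is the nearest coding gene, and 4 other coding genes lie within 50 kb of Gata1.

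Isl1, a LIM homeobox gene of second heart field and motor neurons, had 2 regions in 2iL and 1 later. The stronger, chr13:116312020-116312935 in 2iL, lies 2.73 kb upstream of the start. Its fold was 8.77 in 2iL (6.59 to 11.4, 52 reads), 11.5 after 48 h (9.59 to 13.6, 129 reads) and 9.84 after 96 h (7.75 to 12.3, 74 reads), with overlapping intervals. The other, chr13:116309254-116310506, is the one that overlaps the promoter printed above, with its summit at -371 from the start. It had fold 3.96 (2.76 to 5.51, 33 reads) and was called in 2iL only, so the upstream site was called in all 3 libraries and the promoter site in 1.

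Gata2, a factor of blood stem and progenitor cells, had 4 regions in 2iL and 1 at each later time. The strongest of 2iL, chr6:88236368-88237244, 29.8 kb downstream and nearer to Dnajb8, had fold 7.48 (5.68 to 9.67) and was called in 2iL only, as were 2 more with folds of 4.05 and 4.13. The region that remained lies 4.14 kb upstream, with folds of 3.48 in 2iL, 3.84 after 48 h and 3.73 after 96 h. The mean over the 48 h summits was 2.84, below the single summits of the other libraries. At Gata2 the site of lowest fold in 2iL, 3.48 (2.63 to 4.53), was the one called in all 3 libraries. Its interval overlaps those of the sites at 4.05 (2.9 to 5.52) and 4.13 (3.01 to 5.53), so their order is not settled.

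Foxf1 and Foxc2, forkhead genes of lateral and paraxial mesoderm, share 1 region that lies between them inside Mthfsd. It was chr8:121091749-121093141 in 2iL, 4.64 kb from Foxf1 and 23.4 kb from Foxc2. The fold was 4.51 in 2iL (3.35 to 5.95, 48 reads), 3.71 after 48 h (2.96 to 4.6, 82 reads) and 6.61 after 96 h (5.04 to 8.51, 58 reads). The 96 h interval lies above that of 48 h and overlaps that of 2iL, and the 96 h to 2iL ratio of 1.46 was the highest in the list. The mean over summits was 2.98 in 2iL, 3.71 after 48 h and 4.34 after 96 h.

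By highest summit, Nkx2-5, the early cardiac homeobox gene, had the strongest region of the list that was called in 2iL alone. It was chr17:26835668-26836723, 2.52 kb downstream, with fold 8.22 (6.24 to 10.6, 56 reads). Its mean over summits was 5.74, below the single summits of 2iL regions near Gata2 (7.48) and Pax3 (6.91). Tbx5, a T-box gene of heart and forelimb, had chr5:119838503-119839713 inside the gene in 2iL, with fold 5.26 (3.82 to 7.07). At 48 h it had chr5:119892737-119893686 instead, 8.01 kb from the gene, with fold 6.01 (4.64 to 7.67). Neither Nkx2-5 nor Tbx5 had a region after 96 h.

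Tal1, needed for the first blood cells, had chr4:115094121-115094869 in 2iL with fold 5.29 (3.65 to 7.44). It had no region after 48 h, and after 96 h had chr4:115097108-115097572 with fold 4.32 (3.25 to 5.64). Pdzk1ip1 is nearer to both. Sox9, a factor of cartilage and neural crest, had chr11:112812316-112813051 after 48 h only, with fold 4.07 (2.88 to 5.59), 25049 bp from the gene. Foxc1, a paralog of Foxc2, had no region in any library.

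The 2iL sites were called again about as often as ESRRB regions in general. Of the 34 regions of 2iL near the 42 genes, 17 were called after 48 h (50%, 32.4 to 67.6) and 12 after 96 h (35.3%, 19.7 to 53.5), where called means an overlap of at least 1 bp. The share over all 13767 regions of 2iL was 50.7% after 48 h and 35% after 96 h. All 12 that were called after 96 h were also called after 48 h, and 17 were called at neither later time (50%), against 45.6% of all. All regions of 2iL, split by fold into 5 equal bands and weighted to the bands in which these 34 fell, gave 48.4% after 48 h and 33.2% after 96 h. In the lists of equal length, which keep the stronger regions of 2iL and 48 h, 71.4% and 64.3% of 14 regions near the genes were called later, against 54.8% and 47.8% of all.

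Strength in 2iL went with being called later. Of the 6 regions of 2iL near the genes in the highest of the 5 bands of fold, above 8.71, 6 were called after 48 h and 5 after 96 h, where 77.5% and 62.2% of all regions in that band were. In the lowest band, 3 of 8 were called after 48 h and 2 after 96 h, where 30.4% and 17.6% of all were. In the next band, up to 5.35, 3 of 10 were called after 48 h and 1 after 96 h, where 37.3% and 23.4% of all were. The region of the highest band not called after 96 h was that of Lhx2. The median 2iL fold was 8.16 where a region was called at both later times and 5.0, with a range of 3.74 to 8.22, where it was called at neither.

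At sites called again, the median fold ratio to 2iL was near 1, and single sites lay well to either side. The median ratio of 48 h to 2iL fold was 0.981 over the 17 regions near the genes, with a range of 0.284 to 1.8, against 0.839 over 6981 regions. For 96 h it was 1.04 over 12 regions, with a range of 0.581 to 1.46, against 0.768 over 4822. The ratio was above 1 at 8 of 17 regions after 48 h and 7 of 12 after 96 h, against 33.2% and 26.5% of all. Folds of different libraries share no scale beyond their local backgrounds, and the middle 90% of all ratios ran from 0.419 to 1.68 after 48 h and from 0.371 to 1.57 after 96 h. Within the list, ratios below those ranges were that of Lhx2 after 48 h, and ratios above them were those of Hhex and Foxa1 after 48 h.

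**Figure D4:**
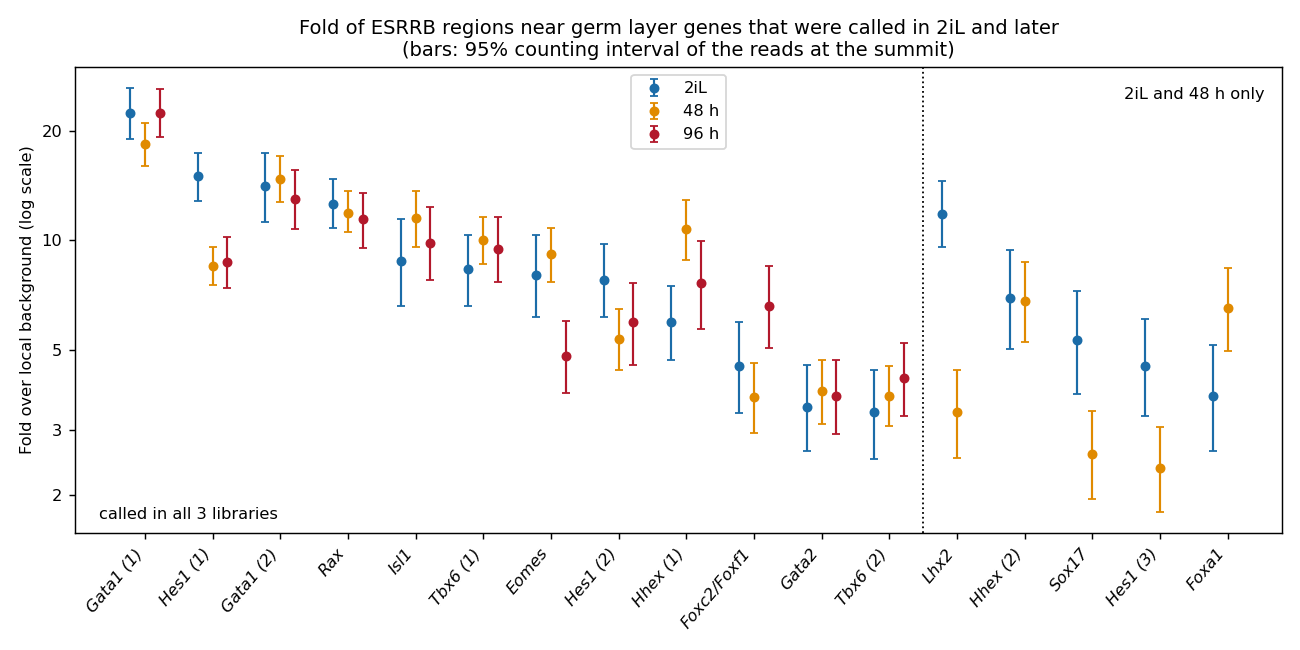
Fold over local background (vertical axis, log scale) in 2iL, after 48 h and after 96 h for the 17 sites near the germ layer genes called in 2iL and later; bars are 95% counting intervals. The bars of Gata1 and Rax overlap across libraries, the first Hes1 site and Lhx2 have their 2iL bar above the later ones, and the first Hhex site is highest after 48 h, with 10.7.

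At sites called in all 3 libraries the summits lay close together. Sites were matched by overlap of their regions, which limits how far apart their summits can be. At the 12 sites called in all 3 libraries the summits lay within a median of 28.5 bp of each other, with a range of 10 to 117 bp, and within 50 bp at 10 of the 12 (83.3%). Over all 4313 regions of 2iL called at both later times the median was 43.0 bp, and 58.0% were within 50 bp. The sets were not matched for fold, and the difference was not tested.

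Regions near the genes that were called only after withdrawal had a lower median fold than those also called in 2iL. At 48 h, 6 of 23 regions near the genes were not called in 2iL (26.1%, 10.2 to 48.4), against 36.5% of all regions of 48 h. The 6 were not called after 96 h either, and 26.3% of all regions of 48 h were alone in this way. At 96 h, 7 of 19 were not called in 2iL (36.8%, 16.3 to 61.6), against 30.5% of all. None of these 7 was called after 48 h, and 14.3% of all regions of 96 h were called in neither other library.

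The 7 were the regions of Pax7, Pax2, Sox1, Eomes, Tal1 and the pair at Mesp1 and Mesp2. Their median fold was 3.58, with a range of 2.36 to 4.32, against 8.15 for the 12 regions of 96 h that were called in 2iL too. At 48 h the median fold was 4.32 for the 6 regions not called in 2iL and 6.82 for the others. The highest of all 13 was 6.01, near Tbx5. Medians split in this way are not at hand for all regions, so the lower folds are not shown to be particular to these genes. Requiring a q of at most 1e-05 left 4 of 16 regions after 96 h in neither other library (25%), and the other alternatives, all added after the data were seen, gave 31.2% to 52.6%. The share of all regions is at hand for the main setting only, so the values of the alternatives cannot be set against 14.3%. The lower bound of the main interval, 16.3%, is not far above the 14.3% of all regions, and the comparison was picked out after the values were seen.

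**Figure D5:**
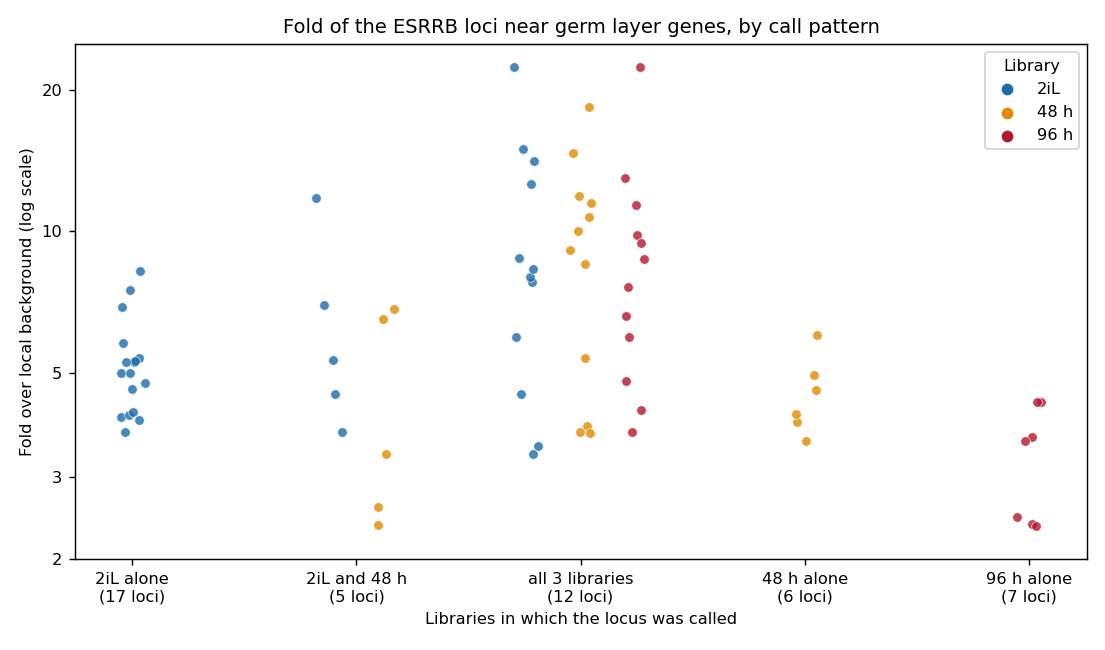
Fold over local background (vertical axis, log scale) of the 47 loci near the germ layer genes, grouped by the libraries in which they were called (horizontal axis); each point is a locus in a library, coloured by library. The 12 loci called in all 3 libraries reach 22.4, the 17 called in 2iL alone reach 8.22, and the 7 called after 96 h alone lie between 2.36 and 4.32.

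Merged across the libraries, the regions near the 42 genes made 47 loci. Of these, 17 were called in 2iL alone (36.2%, against 33.7% of all 18634 loci), 5 in 2iL and after 48 h (10.6%, against 14.0%) and 12 in all 3 libraries (25.5%, against 22.9%). A further 6 were called after 48 h alone (12.8%, against 15.5%) and 7 after 96 h alone (14.9%, against 5.37%). The patterns of 2iL with 96 h but not 48 h, and of both later times without 2iL, had 0 of the 47 loci each, where 2.65% and 5.92% of all loci had them.

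As over all genes, most pairs of a gene and a region lay 10 to 50 kb outside the gene. Counting each gene and region pair once, 19 of 35 pairs in 2iL lay 10 to 50 kb outside the gene (54.3%, against 58.2% over all genes), 13 of 24 after 48 h (54.2%, against 57.4%) and 12 of 21 after 96 h (57.1%, against 58.0%). Pairs 1 to 10 kb outside made up 28.6% in 2iL, 33.3% after 48 h and 33.3% after 96 h, against 14.1%, 14.1% and 14.9% over all genes. Inside the gene were 14.3%, 12.5% and 4.76%, against 21.5%, 22.4% and 19.8%. Within 1 kb of a gene end were 1 pair in 2iL, that of Isl1, 0 after 48 h and 1 after 96 h, that of Eomes. Gene length differs between the list and all genes, as given above, and its part in these shares was not tested. Exons and introns were not told apart.

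Distance alone ties a region to a gene here. A gene of the list was the nearest coding gene for 23 of the 34 regions in 2iL, 16 of 23 after 48 h and 10 of 19 after 96 h. Among the sites named above, those of Gata1, Tbx6, Foxf1 and Foxc2, Gata4, Tal1 and the Mesp genes lie nearer to or inside another gene. So do the upstream ones of Hhex and the Gata2 sites with 2iL folds of 7.48 and 4.13. Those of Hes1, Rax, Lhx2, Isl1, Eomes, Nkx2-5, Foxa1 and Sox17 do not.

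A second list of 40 lineage transcription factor genes, with none of the 42 in it, was near ESRRB regions about as often. A region was near 18 of them in 2iL (45.0%), 17 after 48 h (42.5%) and 16 after 96 h (40%). Fewer regions than in 2iL were near 6 after 48 h and 12 after 96 h, and more near 8 after 48 h and 2 after 96 h. At 48 h more of its genes thus had more regions than fewer, where the 42 genes had 3 with more and 10 with fewer. Of their 27 regions of 2iL, 15 were called after 48 h (55.6%) and 12 after 96 h (44.4%). By lineage, a region in 2iL, after 48 h and after 96 h was near 7, 5 and 4 of 15 neural genes, 7, 5 and 6 of 15 mesoderm genes and 4, 7 and 6 of 10 endoderm genes. The 7 endoderm genes described above had 4, 4 and 1. None of these differences between the lists was tested.

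Among the first genes of that list by highest fold, regardless of which site gave it, only Hnf4a exceeded Gata1 in a library. It did so after 48 h, with 22 against 18.4. In 2iL and after 96 h Gata1 had 22.4, and none of them reached it. The nearest were Msgn1 in 2iL, with 18.7, and Hnf4a after 96 h, with 15.6. Hnf4a, a nuclear receptor gene of liver and gut, had highest folds of 10.4 in 2iL, 22 after 48 h and 15.6 after 96 h. Msgn1, a presomitic mesoderm gene, had 18.7 in 2iL, 4.97 after 48 h and 5.31 after 96 h. Meox1, a somite gene, had 14.9, 5.25 and 3.75. En2, of the midbrain, had 9.96, 5.63 and 5.35. Lmo2, of blood, had 6.29, 7.41 and 6.87, and Cdx2, of trophoblast and hindgut, had 6.63, 6.53 and 5.78. Cdx2 had the same rounded highest fold, 6.63, as its neighbour Pdx1 and as Tbx1, a pharyngeal gene whose region was called in 2iL only. A highest fold can come from different sites in different libraries, and sites were not matched for this list.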

How the data were processed

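ESRRB ChIP-seq regions were studied in 3 libraries, 1 per condition; the 3 inputs were left out. The tools named in the submitters' processing notes, per the labels, are bcl2fastq 2.20.0.422, BWA, SAMtools, Picard and MACS2, with mm10 as the build. Not given in the sources used here: their order, the calling threshold and whether inputs served as controls. The authors deposited, for each summit, a score capped at 1000, which was not analysed, and a fold enrichment, which is a ratio to local background with a pseudocount of 1. They also deposited the p-value and the q-value as −log10, and the summit's offset in base pairs.

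From these, summits were grouped into unique intervals, and reads at the summit were recovered from fold and p (whole within 0.05 for 100% of summits). Depth beyond that is unknown. Overlap of at least 1 bp was computed with Python 3.11.15, numpy 2.4.6 and pandas 2.3.3 and checked with bedtools 2.31.1; intervals came from scipy 1.17.1. Genes and promoters came from RefSeq (GRCm38.p6). The code was tested on simulated data. Alternatives were a q of at most 1e-05, lists cut to 7018 regions, distances of 10 and 100 kb, highest summits, nearest genes, 50% overlap and other motif lengths. Every gene was named, with coordinates for its strongest 2iL region and any region not called in 2iL; the Lhx2 and Hes1 ratios were singled out after their values were seen. The genes and lists were chosen with earlier results of these data known.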

Additional observations from a re-analysis of the deposited data

How the results depend on the processing

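No paired analysis was possible because each condition had 1 library and no test was made. None of the counts and shares moved by over 1.5 times, or outside its counting interval, with a q of at most 1e-05, with the highest summit of each region alone or when shared regions had to overlap by 50% of each. Cutting each list to its 7018 regions of highest fold turned the course over time, to 11 genes with a region in 2iL, 11 after 48 h and 16 after 96 h, from 14, 14 and 19 regions, with a median 2iL fold of 8.27. Under that cut, fewer regions than in 2iL were near 4 genes after 48 h and 4 after 96 h and more near 4 and 10, so the excess of fewer over more was lost after 48 h and reversed after 96 h. Of the 2iL regions left, 71.4% and 64.3% were called after 48 h and 96 h, where 54.8% and 47.8% of all were; that cut changes both the number and the strength of the regions, and the cause was not tested. With summits within 10 kb, 10 genes had a region in 2iL, 10 after 48 h and 8 after 96 h, from 16, 11 and 9 regions, with fewer near 6 genes after 48 h and 7 after 96 h and more near 2 after 96 h. With 100 kb, 33 genes had a region in 2iL, 31 after 48 h and 24 after 96 h, from 69, 53 and 32 regions. Fewer regions than in 2iL were then near 17 genes after 48 h and 22 after 96 h, and more near 10 and 5. Counting a region for its nearest gene only left 8 genes and 10 regions after 96 h and more regions than in 2iL near 2 genes. The cause of these changes was not tested. For the counts at 10 kb, at 100 kb and by nearest gene no share over all genes is at hand, so they describe the list alone. The mean fold over summits in place of the highest moved 23 of the 32 regions with more than 1 summit outside their counting intervals, and the order of libraries turned at several named sites, the strongest of Hes1 among them. The 1-library design and summits of 17 to 271 reads set the precision.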
